A study of Mus musculus with 11 samples.

Results

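DN3 thymocytes of Arpp21-/- mice were compared with DN3 thymocytes of WT mice by RNA sequencing, with 3 libraries of each genotype. These 6 libraries were chosen by their labels for stage and genotype from the 11 libraries of the study, which also sequenced DN2 thymocytes of both genotypes. All 6 carry the strain label C57BL/6J. By the methods, the mice had a C57BL/6 background, and the Arpp21-/- line was made in C57BL/6N embryos with Cas9 and a pair of guides in the introns on either side of exon 5, so that the deletion was present in every cell of the animal. WT mice carried no edited allele, and no mouse received a treatment. Thymocytes were depleted of CD4+ and CD8+ cells and sorted by flow cytometry. The sources used here give neither the age or litter of each library nor the number of founders or of pooled animals.

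DN3 thymocytes are CD4-CD8- precursors of T cells that display CD25 and have lost CD44. At this stage the recombinase Rag1-Rag2 joins the gene segments of the T cell receptor β, γ and δ loci, and a cell with a productive β chain, paired with the pre-TCRα chain, passes β selection and divides. Arpp21 is an RNA-binding protein of the R3H family that is made in early thymocytes and in neurons, and proteins of this kind bind messenger RNAs, often in the 3′ UTR, and change their stability or translation.

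The 6 libraries held between 14531762 and 22133452 estimated counts. Values are given in CPM, counts scaled to library size with TMM factors, in the order of replicates 1, 2 and 3 of each genotype, and log2 fold changes (log2FC) are Arpp21-/- minus WT with their standard error (SE). Arpp21-/- replicate 3 stood apart from the other 5 libraries. Its log2 CPM correlated with theirs at 0.888 to 0.917, whereas the other libraries correlated among each other at up to 0.981. Its deviation from the mean log2 CPM of the 6 libraries changed by -0.47 for each doubling of transcript length, against 0.0441 to 0.15 in the others. These slopes are not independent, since that mean includes each library. Limma gave replicate 3 a weight of 0.0884 against at least 0.933. Among 8409 genes the median SD of log2 CPM was 0.14 within WT, 0.454 within Arpp21-/- and 0.134 between Arpp21-/- replicates 1 and 2. Counts and medians of gene groups are therefore given with and without this library, and the part of the library in a result was not tested beyond that.

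All 6 libraries held the markers of DN3. The 13 genes of the DN3 list, among them Ptcra, Cd3e, Lck and Bcl11b, summed to 12700 to 13300 CPM in WT, against 12600 to 14000 CPM in Arpp21-/- libraries. The DN2 list summed to 215 to 309 and 173 to 287 CPM, and the DP list to 446 to 536 and 306 to 487 CPM, most of it Themis. Markers of myeloid cells, which are phagocytes and granulocytes, summed to 31.5 to 39.1 and 36.6 to 51.6 CPM, and those of dendritic cells to 152 to 164 and 143 to 208 CPM. The list of B cells summed to 389 to 402 CPM in WT, against 419 to 523 CPM in Arpp21-/-, most of it Ighm, while the defining genes Pax5 and Cd79a were at or below 0.0934 CPM in all 6 libraries. The list of natural killer cells and innate lymphoid cells summed to 183 to 238 CPM in WT, against 196, 216 and 527 CPM in Arpp21-/-, nearly all of it the granzyme Gzma, while the defining genes Ncr1 and Eomes were at or below 0.0931 CPM. The list of erythroid cells and platelets, mostly hemoglobin genes, summed to 51.4 to 98.9 CPM in WT, against 87, 46.1 and 174 CPM in Arpp21-/-. In both lists replicate 3 was above all other libraries.

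Of 12394 genes tested by edgeR, 0 passed an adjusted p of 0.05 with all 6 libraries (0.0%), and the lowest adjusted p was 0.486, for H2-Q6. Before adjustment, 398 genes had p below 0.05 (3.21%), 233 of them lower (1.88%) and 165 higher (1.33%) in Arpp21-/-. DESeq2 called 49 genes (0.395%), 35 lower (0.282%) and 14 higher (0.113%), and limma voom with sample quality weights, which lets a variable library count less, called 85 genes (0.686%), 67 lower (0.541%) and 18 higher (0.145%). Both tools called 36 genes, 28 lower (0.226%) and 8 higher (0.0645%). Without Arpp21-/- replicate 3, edgeR called 11 of 12796 genes (0.086%), 10 lower (0.0781%) and 1 higher (0.00781%), and DESeq2 called 219 genes (1.75%), 169 lower (1.35%) and 50 higher (0.399%). Also without it, limma voom called 10 genes (0.0781%), 7 lower (0.0547%) and 3 higher (0.0234%), and edgeR with an offset for the length trend of each library called 16 (0.125%), 14 lower (0.109%) and 2 higher (0.0156%). Of the 49 genes called by DESeq2 with all libraries, 44 were also called without this library. In each of these counts of calls, more genes were lower than higher in Arpp21-/-. Since nothing in the sources says that the libraries of a genotype come from separate animals, the p values measure the spread between these libraries. As a measure that needs no model, genes were also counted whose 3 Arpp21-/- values lay all below or all above the 3 WT values, which held for 695 genes (5.61%) and 662 genes (5.34%) of all those tested. Without Arpp21-/- replicate 3 it held for 1415 (11.1%) and 1599 (12.5%) of 12796 genes, so that by this count more genes were higher than lower. Among exchangeable libraries, 3 against 3 part in this way, in either direction, with a probability of 0.1. The share observed with all libraries was 10.9% for both directions together. With fewer libraries that probability is higher. A gene without overlap is therefore not a call.

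The targeted gene was read in every library, but in other transcript forms. Arpp21 lies at chr9:112065091-112235938 on the minus strand (GRCm38). Its gene total was 395, 352 and 329 CPM in WT, against 347, 232 and 154 CPM in Arpp21-/-. Transcripts with the 145 nt exon at chr9:112179028-112179172, the fifth of 19 exons in Arpp21-229, summed to 320, 286 and 270 CPM in WT, against 178, 120 and 44.7 CPM in Arpp21-/-. All 3 Arpp21-/- values lay below the WT values, with a difference of -1.55 on the scale of log2(CPM + 1) (exact two-sided permutation test, p = 0.1, the smallest that 3 against 3 libraries allow). This exon is not a multiple of 3 in length. Transcripts that end before it, in an alternative last exon at chr9:112180978-112182820, went the other way, with 47.7, 41 and 37.6 CPM in WT, against 136, 93.3 and 99.7 CPM in Arpp21-/- (difference 1.35, exact p = 0.1). The share of Arpp21 counts in transcripts with the exon was 81.0, 81.2 and 82.2% in WT and 51.4, 51.8 and 29.1% in Arpp21-/-. The alternative end took 12.1, 11.6 and 11.4% in WT and 39.3, 40.2 and 64.9% in Arpp21-/-. Counts assigned to exon-containing transcripts in Arpp21-/- libraries do not show that the exon was read, because kallisto shares out read pairs that fit several transcripts, and coordinates of the deletion were not used here.

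**Figure D1:**
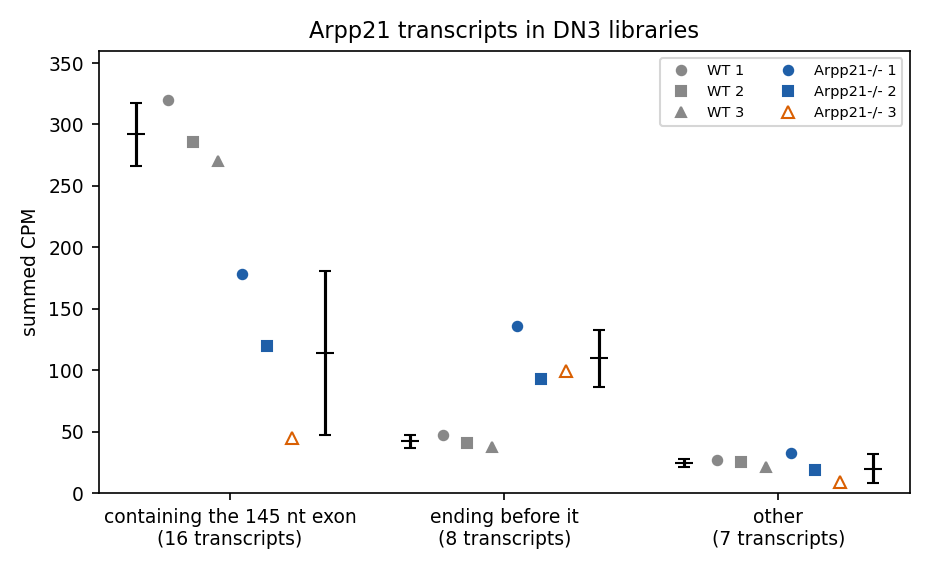
Summed CPM of Arpp21 transcripts in each DN3 library, with the mean and SD of each genotype as black bars, for the 16 transcripts that contain the 145 nt exon, the 8 that end before it and the 7 others. The WT libraries lie above the Arpp21-/- libraries in the first set and below them in the second.

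The point at which the forms part is the end of the 90 nt exon at chr9:112183495-112183584. From there Arpp21-229 goes on into the 145 nt exon and Arpp21-218 into the alternative last exon. The lines give the last 15 bases of the shared exon in lower case and the first 15 of the next exon in capitals, 5′ to 3′ on the strand of the gene, read from the GENCODE M21 transcripts.
Arpp21-229: agtcaccaggatcagGAATCAATTCACTTA
Arpp21-218: agtcaccaggatcagACTCTCTGAGAACTG
Arpp21-218 had the lowest p of all 33244 transcripts tested. It stood at 23.6, 18.1 and 18.7 CPM in WT, against 86.6, 77.9 and 82.6 CPM in Arpp21-/- (log2FC 2.03, SE 0.207), which DESeq2 called higher (adjusted p = 4.97e-19) and edgeR did not (adjusted p = 0.709). Arpp21-221, a coding form, stood at 34, 35.3 and 29 CPM in WT, against 6.68, 6.53 and 2.49 CPM in Arpp21-/-, and DESeq2 called it lower. For the whole gene the log2FC was -0.55 (SE 0.308), and the values of the 2 genotypes overlapped.

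A small set of genes was called when the library that stood apart was left out, and most of them kept their direction in that library. Of the 11 genes that edgeR called without Arpp21-/- replicate 3, 9 also had this replicate outside the WT range on the same side. Besides Rag1, Scin, Gmeb1, Cep97, H2-Q6 and H2-Q7, they were Nfe2, Pgam2 and Hdac4. Nfe2, a transcription factor of the megakaryocyte and erythroid lineage, stood at 35.7, 32.3 and 29.5 CPM in WT, against 12.1, 12.7 and 16.9 CPM in Arpp21-/- (log2FC -1.23, SE 0.228). Pgam2, the muscle form of the glycolytic enzyme phosphoglycerate mutase, stood at 26.2, 31.9 and 36.2 CPM against 7.13, 4.86 and 12.2 CPM (log2FC -1.97, SE 0.370). Hdac4, a class IIa histone deacetylase, stood at 715, 636 and 666 CPM against 333, 284 and 94.1 CPM (log2FC -1.50, SE 0.441). DESeq2 with all libraries called Nfe2 and Pgam2 lower, and not Hdac4 (adjusted p = 0.162). In none of the 3 genes did the genotypes overlap.

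In the remaining 2 of the 11, Arpp21-/- replicate 3 went against replicates 1 and 2. Uaca, a coiled-coil protein of the apoptosome pathway, stood at 24.5, 23 and 20.2 CPM in WT, against 78.6, 62.7 and 6.72 CPM in Arpp21-/-. Crip1, a small LIM domain protein, stood at 1590, 1670 and 1580 CPM against 889, 846 and 1600 CPM. Their log2FC moved from 1.13 to 1.63 and from -0.54 to -0.92 when this replicate was left out.

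**Figure D2:**
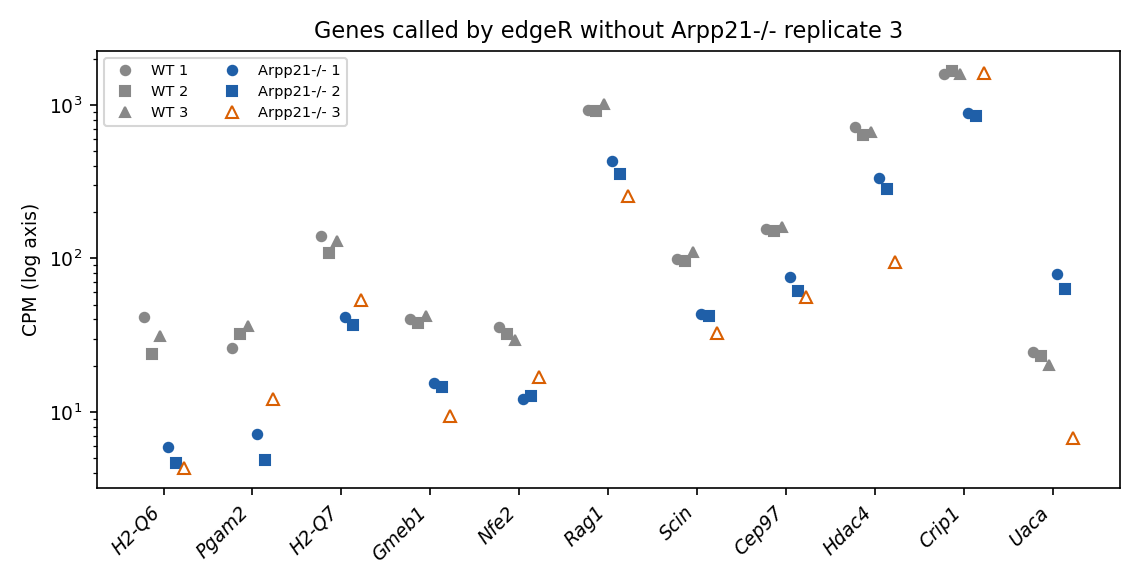
CPM on a log axis of the 11 genes that edgeR called without Arpp21-/- replicate 3, one marker per DN3 library. In 9 genes the open triangle of replicate 3 lies with the other Arpp21-/- libraries outside the WT range, and in Crip1 and Uaca it does not.

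Among the genes that DESeq2 and limma voom both called with all 6 libraries were several with lower and fewer with higher levels. Fam199x stood at 52.2, 54.5 and 72.9 CPM in WT, against 22.6, 26.5 and 17.3 CPM in Arpp21-/- (log2FC -1.44, SE 0.252). Zbtb44, a zinc finger transcription factor, stood at 109, 122 and 146 CPM against 58.6, 60.7 and 42.8 CPM (log2FC -1.22, SE 0.224), and the tetraspanin Tspan9 at 89.9, 61 and 83.2 CPM against 39.3, 33.1 and 19.7 CPM. Gem, a small GTPase that limits calcium channels, stood at 5.04, 8.68 and 7.5 CPM against 2.32, 1.54 and 2.27 CPM, and Wfs1, a membrane protein of the endoplasmic reticulum, at 4.67, 5.1 and 4.38 CPM against 1.47, 1.14 and 0.698 CPM. For these 5 genes the genotypes did not overlap. Higher in every Arpp21-/- library were Slc5a9, a sodium-coupled sugar transporter, with 35.5, 53.9 and 38 CPM against 113, 103 and 85.8 CPM (log2FC 1.25, SE 0.239), and Apoe, a lipid carrier, with 19.7, 16.1 and 13.9 CPM against 34.3, 33.7 and 37.3 CPM (log2FC 1.08, SE 0.216). The zinc finger gene Zfp711 was listed at 0, 0 and 0.233 CPM in WT, against 2.32, 2.17 and 1.05 CPM in Arpp21-/-, which is few counts in any library.

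Many interferon-stimulated genes were lower in Arpp21-/- than in WT DN3 thymocytes, and hardly any was higher. These genes are switched on by type I and type II interferon through receptor-associated kinases and the factors Irf9 and Irf7, and many of their products act against viruses. Of 44 genes in the list, 43 were tested, and in 21 of them every Arpp21-/- library lay below every WT library, with 0 the other way round, against 5.61% and 5.34% of all genes. The median log2FC of the list was -0.43 against 0.01 over all genes, and 37 of the 43 values were below 0. Without Arpp21-/- replicate 3 the median was -0.37, against -0.02 over all genes, and with an offset for the length trend of each library it was -0.38. Without the replicate, 28 genes were lower and 1 higher in both other Arpp21-/- libraries, against 11.1% and 12.5% of all genes. DESeq2 called 4 genes of the list lower, Irf7, Ifi44, Oasl1 and Oasl2, and 13 lower without Arpp21-/- replicate 3. Of all genes, it called 0.282% lower with all libraries and 1.35% without the replicate. Limma voom called 5 lower, against 0.541% of all genes. DESeq2 called 0 higher in both sets of libraries, limma voom called 0 higher, and 0 genes were higher at an unadjusted edgeR p below 0.05.

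Irf7, which drives the second wave of interferon production, stood at 18.8, 23.8 and 16.3 CPM in WT, against 9.62, 6.68 and 8.03 CPM in Arpp21-/- (log2FC -1.27, SE 0.264, DESeq2 adjusted p = 0.0079). Ifi44 stood at 13.1, 14.4 and 16.3 CPM against 4.41, 3.77 and 7.42 CPM (log2FC -1.50, SE 0.323). For both genes the highest Arpp21-/- value was well below the lowest WT value. The relatives of the antiviral oligoadenylate synthetases followed. Oasl1 stood at 15.5, 11.3 and 11.1 CPM against 6.59, 5.77 and 5.76 CPM, and Oasl2 at 19.4, 21.8 and 15.7 CPM against 6.15, 7.83 and 2.09 CPM. Oas3, a synthetase that activates RNase L, stood at 15.4, 10.1 and 7.68 CPM against 5.26, 3.14 and 0.698 CPM. All of these genes had non-overlapping genotypes.

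Further members that were lower in every Arpp21-/- library act in other branches of the response. Rsad2 (viperin), which blocks viral replication, stood at 13.7, 14.5 and 9.5 CPM against 4.14, 4.57 and 1.05 CPM. Usp18, which removes Isg15 from proteins and dampens the receptor, stood at 31.4, 42.1 and 29.6 CPM against 19.5, 16.7 and 21.3 CPM, and Isg15 itself at 24.8, 23.4 and 18.9 CPM against 11.7, 9.48 and 17.8 CPM. Iigp1, an interferon-inducible GTPase, stood at 20.7, 25.6 and 15.6 CPM against 11, 9.37 and 8.03 CPM. The chaperone of receptors Rtp4 stood at 47.3, 60.4 and 47.9 CPM against 27.1, 18.9 and 34 CPM. Irf9, the DNA-binding subunit of the interferon factor ISGF3, differed less, with 63.7, 67.2 and 63.8 CPM against 45.3, 41.8 and 56.3 CPM (log2FC -0.44, SE 0.196). DESeq2 called Rsad2, Usp18, Isg15, Iigp1, Rtp4 and Irf9 lower only when Arpp21-/- replicate 3 was left out.

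The immunoproteasome subunits, which are interferon-inducible as well, depended on 1 library. Psmb8 stood at 928, 986 and 907 CPM in WT, against 792, 791 and 1650 CPM in Arpp21-/-, Psmb9 at 178, 178 and 165 CPM against 139, 155 and 297 CPM, and Psmb10 at 187, 194 and 198 CPM against 172, 170 and 345 CPM. In all 3, Arpp21-/- replicates 1 and 2 were below WT and replicate 3 was above it. Their log2FC of 0.20, 0.18 and 0.25 turned to -0.27, -0.27 and -0.20 without replicate 3. Of the receptors, Ifnar2, a chain of the type I interferon receptor, stood at 111, 116 and 107 CPM against 91.1, 88 and 71.6 CPM. Ifngr1, the ligand-binding chain for interferon-γ, stood at 693, 505 and 510 CPM against 354, 271 and 437 CPM, and limma voom called it lower (adjusted p = 0.0491). In bulk RNA, fewer cells of a kind that make a transcript and less of it per cell cannot be told apart. The markers of dendritic cells moved in the same direction in part. Of 8 in the list, 5 were tested, and their median log2FC was -0.14 with all libraries and -0.37 without replicate 3, where 5 of 5 were below 0. The genotypes overlapped in 5 of 5, and the list summed to 152 to 164 CPM in WT, against 148, 143 and 208 CPM in Arpp21-/-. The most abundant gene of the list was Bst2. Among its defining genes, Flt3 and Siglech did not exceed 0.313 and 0.445 CPM, while Zbtb46 was among the 5 tested. The part of these cells in the interferon values was not tested.

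**Figure D3:**
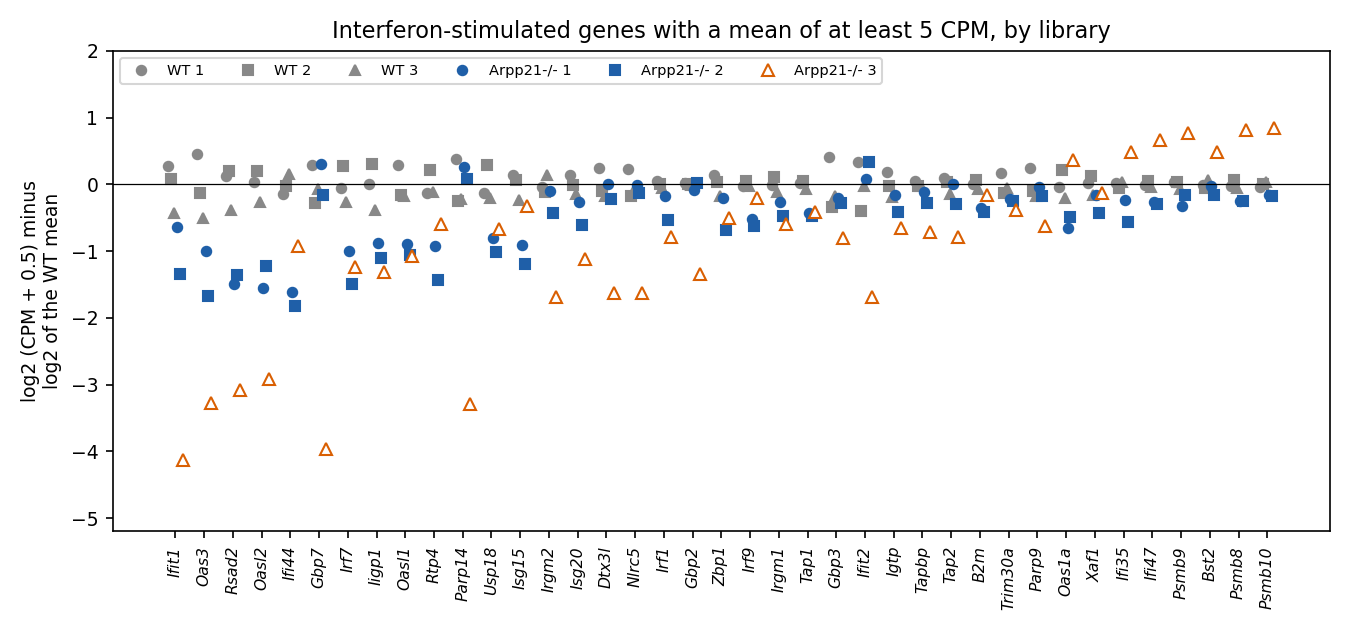
Log2 of CPM + 0.5 of each DN3 library minus log2 of the WT mean, for interferon-stimulated genes with a mean of at least 5 CPM, ordered by fold change. Arpp21-/- replicates 1 and 2 lie below 0 for most genes, and replicate 3 (open triangles) spreads from the lowest values at the left to values above WT at the right, where Psmb8, Psmb9 and Psmb10 stand.

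Genes of MHC class I and of its peptide loading were lower as well, with exceptions. MHC class I molecules carry peptides to the cell surface on a heavy chain paired with β2-microglobulin, after transport by Tap1 and Tap2. Of 19 genes in the list, 17 were tested, 8 were lower in every Arpp21-/- library (47.1%) and 2 were higher in every one (11.8%), against 5.61% and 5.34% of all genes. Without replicate 3, 10 of 18 were lower and 5 higher, against 11.1% and 12.5% of all genes. The median log2FC was -0.33, and -0.28 without Arpp21-/- replicate 3. DESeq2 called 3 lower, H2-Q6, H2-Q7 and H2-D1, and 6 lower without replicate 3, against 0.282% and 1.35% of all genes. The list shares 4 genes with the interferon-stimulated list and so gives no separate count.

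The classical heavy chain gene H2-K1 stood at 567, 533 and 518 CPM in WT, against 386, 336 and 296 CPM in Arpp21-/- (log2FC -0.67, SE 0.188), and limma voom called it lower (adjusted p = 0.0417). H2-Q7, a nonclassical gene, stood at 140, 109 and 129 CPM against 41.3, 36.8 and 53.9 CPM (log2FC -1.52, SE 0.225). Tap1 stood at 217, 223 and 204 CPM against 159, 154 and 160 CPM, and B2m at 1380, 1450 and 1310 CPM against 1080, 1040 and 1230 CPM. In each of these genes the genotypes did not overlap. H2-Q2 went the other way, with 26, 20.9 and 11.8 CPM in WT, against 31.2, 34.9 and 48 CPM in Arpp21-/- (log2FC 0.96, SE 0.338). H2-Q2, H2-Q6 and H2-Q7 are related genes on chromosome 17. How kallisto shared read pairs among related genes can move their counts, which was not tested.

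Adhesion molecules and integrins that place thymocytes in the tissue were lower in part. Of 25 genes tested, 6 were lower (24%) and 2 higher (8%) in every Arpp21-/- library, against 5.61% and 5.34% of all genes. Without replicate 3 it was 9 and 4, against 11.1% and 12.5% of all genes. The median log2FC was -0.22, or -0.20 without replicate 3. DESeq2 called Itgae and Itgb3 lower and Cd81 higher, where it called 0.282% and 0.113% of all genes. It called 6 lower and 1 higher without replicate 3, against 1.35% and 0.399% of all genes. Itgae (CD103), which binds E-cadherin of epithelial cells, stood at 18.3, 17.2 and 21.3 CPM in WT, against 6.46, 4.74 and 2.79 CPM in Arpp21-/- (log2FC -2.01, SE 0.344). Itgb3, the integrin β3 chain, stood at 17, 16.6 and 17.8 CPM against 7.79, 7.77 and 4.54 CPM (log2FC -1.35, SE 0.282). Cd96, a receptor for nectin-like proteins, stood at 137, 122 and 148 CPM against 94.3, 77 and 64.6 CPM. The genotypes of these 3 genes did not overlap, and in Itgae and Itgb3 they were more than 2-fold apart. Cd81, a tetraspanin, was the reverse with 12.9, 16.5 and 16.4 CPM against 32.8, 41.5 and 52.5 CPM (log2FC 1.47, SE 0.252).

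Genes of G protein signaling and migration held some of the lowest p values of the comparison, although the group as a whole had a median near 0. Receptors of this class sense chemokines and lipids and pass the signal to trimeric G proteins, which steer migration of thymocytes. Of 42 genes tested, 6 were lower (14.3%) and 3 higher (7.14%) in every Arpp21-/- library, against 5.61% and 5.34% of all genes. Without replicate 3 it was 12 and 5, against 11.1% and 12.5% of all genes. The median log2FC was -0.03, or -0.11 without replicate 3. DESeq2 and limma voom both called Gng2, Sstr2 and S1pr3 lower, where both called 0.226% of all genes lower. Gng2, a γ subunit of trimeric G proteins, stood at 12, 12.2 and 10.9 CPM in WT, against 3.87, 3.88 and 3.4 CPM in Arpp21-/- (log2FC -1.65, SE 0.240). Sstr2, a somatostatin receptor, stood at 45.7, 53.2 and 44.1 CPM against 21.8, 15.9 and 18.3 CPM (log2FC -1.35, SE 0.216). S1pr3, a receptor for sphingosine 1-phosphate, stood at 4.76, 3.36 and 3.35 CPM against 0.356, 0.8 and 0.0872 CPM, the last of which is below the level of 3 counts. In all 3 the genotypes did not overlap, and replicate 3 was close to or below the other Arpp21-/- libraries. Gpr18, an orphan receptor of lymphocytes, stood at 10.1, 6.89 and 10.8 CPM against 4.72, 4.63 and 4.36 CPM (log2FC -1.02, SE 0.279), and Ccr9, the receptor for the thymic chemokine Ccl25, at 196, 201 and 240 CPM against 180, 106 and 86.5 CPM (log2FC -0.78, SE 0.300). DESeq2 called neither of them (adjusted p = 0.131 and 0.867).

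Cytokine receptors and their signal transducers had a median below 0, whose size depended on the length offset, and few calls. Of 29 genes tested, 6 were lower (20.7%) and 1 higher (3.45%) in every Arpp21-/- library, against 5.61% and 5.34% of all genes. Without replicate 3 it was 6 and 2, against 11.1% and 12.5% of all genes. The median log2FC was -0.29, or -0.18 without replicate 3 and -0.12 with the offset for the length trend. With all libraries 4 were lower at an unadjusted edgeR p below 0.05, against 1.88% of all genes. Limma voom called 3 lower, against 0.541% of all genes, and DESeq2 called 0. DESeq2 called 2 lower without replicate 3, against 1.35% of all genes. Cish, a feedback inhibitor that Stat5 induces, stood at 20.4, 27.6 and 22.2 CPM in WT, against 11.4, 6.63 and 2.88 CPM in Arpp21-/- (log2FC -1.74, SE 0.471), and limma voom called it lower (adjusted p = 0.0334). Il4ra, the interleukin 4 receptor, stood at 12.6, 9.66 and 8.43 CPM against 6.06, 3.14 and 6.54 CPM. The list of interleukin receptor genes shares members with this one, such as Il4ra, and so gives no separate count. In it, 6 of 27 tested were lower (22.2%) and 0 higher in every Arpp21-/- library, against 5.61% and 5.34% of all genes. Of 29 tested without replicate 3 it was 6 and 1, against 11.1% and 12.5% of all genes. The median log2FC of this list was -0.13, and -0.03 with the offset for the length trend. The genes lower in every Arpp21-/- library include Il17re, with 10.1, 6.17 and 5.4 CPM against 3.43, 2.4 and 2.97 CPM, and Il10ra, with 56.4, 46.3 and 45.1 CPM against 33.1, 25.4 and 33.2 CPM.

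In the TGF-β pathway, 3 of 20 genes tested were lower in every Arpp21-/- library (15%) and 0 higher, against 5.61% and 5.34% of all genes. Without replicate 3 it was 4 and 0, against 11.1% and 12.5% of all genes. Tgfbr1, the type I receptor kinase, stood at 312, 277 and 314 CPM in WT, against 159, 120 and 196 CPM in Arpp21-/- (log2FC -0.93, SE 0.229). The accessory receptor Tgfbr3 stood at 49.6, 37.2 and 38 CPM against 25.6, 23.9 and 8.55 CPM, and the ligand Tgfb1 at 68.4, 70.3 and 64.7 CPM against 46.2, 53.6 and 30.1 CPM. These are a ligand and receptors, and 0 of the Smad genes were among them. The median log2FC of the list was -0.20, and it moved to -0.01 with the offset for the length trend, so that no direction is given for the list.

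Transcription factors of T lineage commitment had a median log2FC of -0.36, which was -0.14 without Arpp21-/- replicate 3 and -0.23 with the offset for the length trend. Of 29 tested, 5 were lower (17.2%) and 0 higher in every Arpp21-/- library, against 5.61% and 5.34% of all genes. Without replicate 3 it was 6 and 2, against 11.1% and 12.5% of all genes. Tox2, an HMG box factor, stood at 5.09, 4.56 and 5.59 CPM in WT, against 1.6, 2.4 and 0.611 CPM in Arpp21-/-. Runx1, a factor needed for the passage through DN stages, stood at 397, 386 and 486 CPM against 308, 245 and 110 CPM. DESeq2 called Tox2 and Runx1 lower without replicate 3 and not with it. Of 24 Notch pathway genes and of 38 genes of the cell cycle, 0 had genotypes that did not overlap, and their median log2FC were -0.09 and -0.07. Of 29 genes of the pre-TCR and its signaling, 2 were lower (6.90%) and 1 higher (3.45%), near the shares over all genes. The one that was higher was Ptcra, the pre-TCRα chain, with 446, 413 and 385 CPM against 502, 454 and 654 CPM (log2FC 0.37, SE 0.210), and neither DESeq2 nor limma voom called a gene of the 3 lists, which held 0 genes at an unadjusted edgeR p below 0.05.

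Variable (V) segments of the T cell receptor loci were lower in part, among them most of the tested segments of the γ locus. Transcripts of unrearranged and rearranged V segments are read alike here. Of 48 V segments tested, 17 were lower (35.4%) and 3 higher (6.25%) in every Arpp21-/- library, against 5.61% and 5.34% of all genes. Without replicate 3 it was 26 and 3 of 49, against 11.1% and 12.5% of all genes. The median log2FC was -0.39, or -0.46 without replicate 3. At the γ locus 4 of 6 segments were lower, and the segments summed to 438, 400 and 426 CPM in WT, against 290, 224 and 257 CPM in Arpp21-/-. At the β locus 7 of 21 were lower, with sums of 320, 316 and 314 CPM against 207, 238 and 316 CPM, so that replicate 3 lay within the WT range. At the α and δ loci 6 of 20 were lower and 3 higher.

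Trgv2 made up most of the γ sum, with 316, 288 and 299 CPM in WT, against 214, 165 and 187 CPM in Arpp21-/- (log2FC -0.67, SE 0.184). Tcrg-V4 stood at 82.1, 81.3 and 95.7 CPM against 55.8, 44.2 and 53.8 CPM, Tcrg-V1 at 26.1, 19.1 and 22.5 CPM against 13.7, 11.1 and 7.94 CPM, and Tcrg-V3 at 3.6, 2.33 and 2.14 CPM against 0.668, 0.343 and 0.785 CPM. In the test of genes, DESeq2 called Tcrg-V3 lower with all libraries, and the other 3 only without replicate 3. Of the β segments, Trbv17 stood at 12.6, 9.53 and 11.4 CPM against 2.98, 4 and 5.85 CPM, and Trbv12-1 at 16.4, 17.7 and 18.5 CPM against 6.95, 7.71 and 10.7 CPM, both called lower by DESeq2. The constant gene Trbc1 was higher instead, at 652, 694 and 668 CPM against 792, 765 and 1230 CPM. Segments of a locus share sequence, and the split of read pairs among them is uncertain.

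The markers of γδ T cells were lower in sum, like the γ V segments. The list summed to 388, 329 and 364 CPM in WT, against 323, 278 and 280 CPM in Arpp21-/-, below every WT library in each case. The γ constant genes were meant to be in the list as Trgc1, Trgc2 and Trgc4. The annotation did not hold these names, and other names of these genes were not added to the list, so that the sum leaves them out. Of the 5 other markers 4 were tested, and 3 had a log2FC below 0. Blk and Cd163l1, 50% of those tested, were lower in every Arpp21-/- library, against 5.61% of all genes. Over all T cell receptor loci, 8 constant genes were tested, of which 3 were lower (37.5%) and 2 higher (25%) in every Arpp21-/- library. The shares over all genes were 5.61% and 5.34%. Leaving out replicate 3 it was 4 and 2, against 11.1% and 12.5% of all genes. Zbtb16, a defining factor of innate-like γδ cells, did not exceed 0.134 CPM. Trdc, the δ constant gene, stood at 299, 269 and 293 CPM in WT, against 277, 247 and 246 CPM in Arpp21-/-, and the genotypes overlapped. Cd163l1, a scavenger receptor of γδ T cells, stood at 59.9, 24.4 and 31.6 CPM against 11.3, 5.54 and 3.84 CPM (log2FC -2.48, SE 0.514), and DESeq2 called it lower (adjusted p = 0.0016). Blk, a Src family kinase, stood at 27, 32.2 and 32.3 CPM against 25.3, 20.4 and 26.4 CPM (log2FC -0.34), and Sox13, a transcription factor of γδ cells, had a log2FC of 0.56. The part of γδ cells in the V segment values was not tested.

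Of 23 genes of V(D)J recombination and end joining, Rag1 was lower, and Rag2 and Dntt were higher, in every Arpp21-/- library. These shares, 4.35% and 8.7%, were near the 5.61% and 5.34% of all genes, and the following are single genes. Rag1 stood at 925, 910 and 1020 CPM in WT, against 429, 352 and 255 CPM in Arpp21-/- (log2FC -1.47, SE 0.243). Rag2, its partner in the recombinase, stood at 153, 151 and 141 CPM against 189, 177 and 217 CPM (log2FC 0.39, SE 0.175). Dntt, which adds nucleotides at the joins, stood at 2540, 2600 and 2670 CPM against 3300, 2840 and 3560 CPM (log2FC 0.31, SE 0.205). Neither Rag2 nor Dntt was called by any of the tools, while Rag1 was called by DESeq2 and limma voom, and by edgeR without replicate 3. Without replicate 3, 1 gene was lower and 8 were higher in both other Arpp21-/- libraries, against 11.1% and 12.5% of all genes. With all libraries the other 20 genes of the list had overlapping genotypes, and the median log2FC of the list changed sign with the libraries used, from -0.07 to 0.07 without replicate 3.

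In the lists of survival, autophagy and RNA control the share of genes without overlap was near that of all genes, and the following are single genes. Of 24 survival genes tested 2 were lower and 2 higher in every Arpp21-/- library (8.33% each), of 31 autophagy genes 3 and 2 (9.68% and 6.45%) and of 59 RNA-binding regulators 4 and 2 (6.78% and 3.39%), against 5.61% and 5.34% of all genes. Bcl2, the survival factor of thymocytes, stood at 163, 159 and 165 CPM in WT, against 122, 70 and 61.6 CPM in Arpp21-/- (log2FC -0.94, SE 0.284), and the death receptor Fas at 2.01, 2.24 and 3.17 CPM against 5.17, 5.54 and 5.67 CPM (log2FC 1.14, SE 0.309). Neither was called by DESeq2 (adjusted p = 0.329 and 0.0786), although the genotypes of both did not overlap. Atg12, which is conjugated to Atg5 in autophagy, stood at 128, 115 and 134 CPM against 85.2, 72.9 and 78.7 CPM, and limma voom called it lower (adjusted p = 0.0417). Among RNA-binding regulators, Ptbp3, a splicing repressor, stood at 326, 317 and 279 CPM against 204, 194 and 223 CPM, and limma voom called it lower (adjusted p = 0.0491). Rc3h2 (Roquin-2), which triggers decay of bound mRNAs, stood at 70.3, 75.7 and 96.9 CPM against 45.4, 37.8 and 27.8 CPM (log2FC -1.13, SE 0.254).

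The medians of several classes of short or long transcripts rested on Arpp21-/- replicate 3. The 83 genes of cytosolic ribosomal proteins tested had a median log2FC of 0.70, which was 0.08 without this library. Their sum was 49900, 60700 and 49900 CPM in WT, against 55100, 60600 and 147000 CPM in Arpp21-/-. The 67 histone genes turned from 0.52 to -0.31 without it, where 47 were below 0. There, 12 were lower and 2 higher in both other Arpp21-/- libraries, against 11.1% and 12.5% of all genes. The median of the 91 nuclear genes of the respiratory chain went from 0.53 to 0.00 and that of the 39 proteasome subunits from 0.33 to -0.05. Kinesins, whose genes are long, went from -0.30 to 0.06. Over all genes, the tenth with the shortest transcripts, of at most 1000 nt, had a median log2FC of 0.37 and the tenth with the longest, of at least 5580 nt, -0.22, and these were -0.05 and 0.03 without the library.

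The 13 genes encoded by the mitochondrial genome were higher in part, and here the sign of the median did not depend on this library. Their median log2FC was 0.29, with 13 of 13 above 0, and 0.40 without it, with 10 above and 3 below 0. They summed to 10400, 12300 and 10000 CPM in WT, against 13800, 12100 and 23900 CPM in Arpp21-/-. The gene mt-Co1, for the catalytic subunit of cytochrome c oxidase, stood at 1280, 1650 and 1460 CPM in WT, against 2440, 1950 and 1970 CPM in Arpp21-/- (log2FC 0.54, SE 0.215). The genotypes did not overlap in 3 of the 13 genes, all higher (23.1%, against 5.34% of all genes), and in 9 without replicate 3, where 12.5% of all genes were higher. Other genes split by library. Cytochrome b (mt-Cytb) stood at 897, 1000 and 901 CPM against 1560, 1260 and 505 CPM, and mt-Co3 at 3900, 4610 and 3740 CPM against 4030, 4120 and 14600 CPM, so that replicate 3 was the lowest in the first and the highest in the second. With all libraries 1 of the 13 was higher at an unadjusted edgeR p below 0.05, against 1.33% of all genes, and DESeq2 and limma voom called 0. DESeq2 called 2 higher without replicate 3, against 0.399% of all genes.

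**Figure D4:**
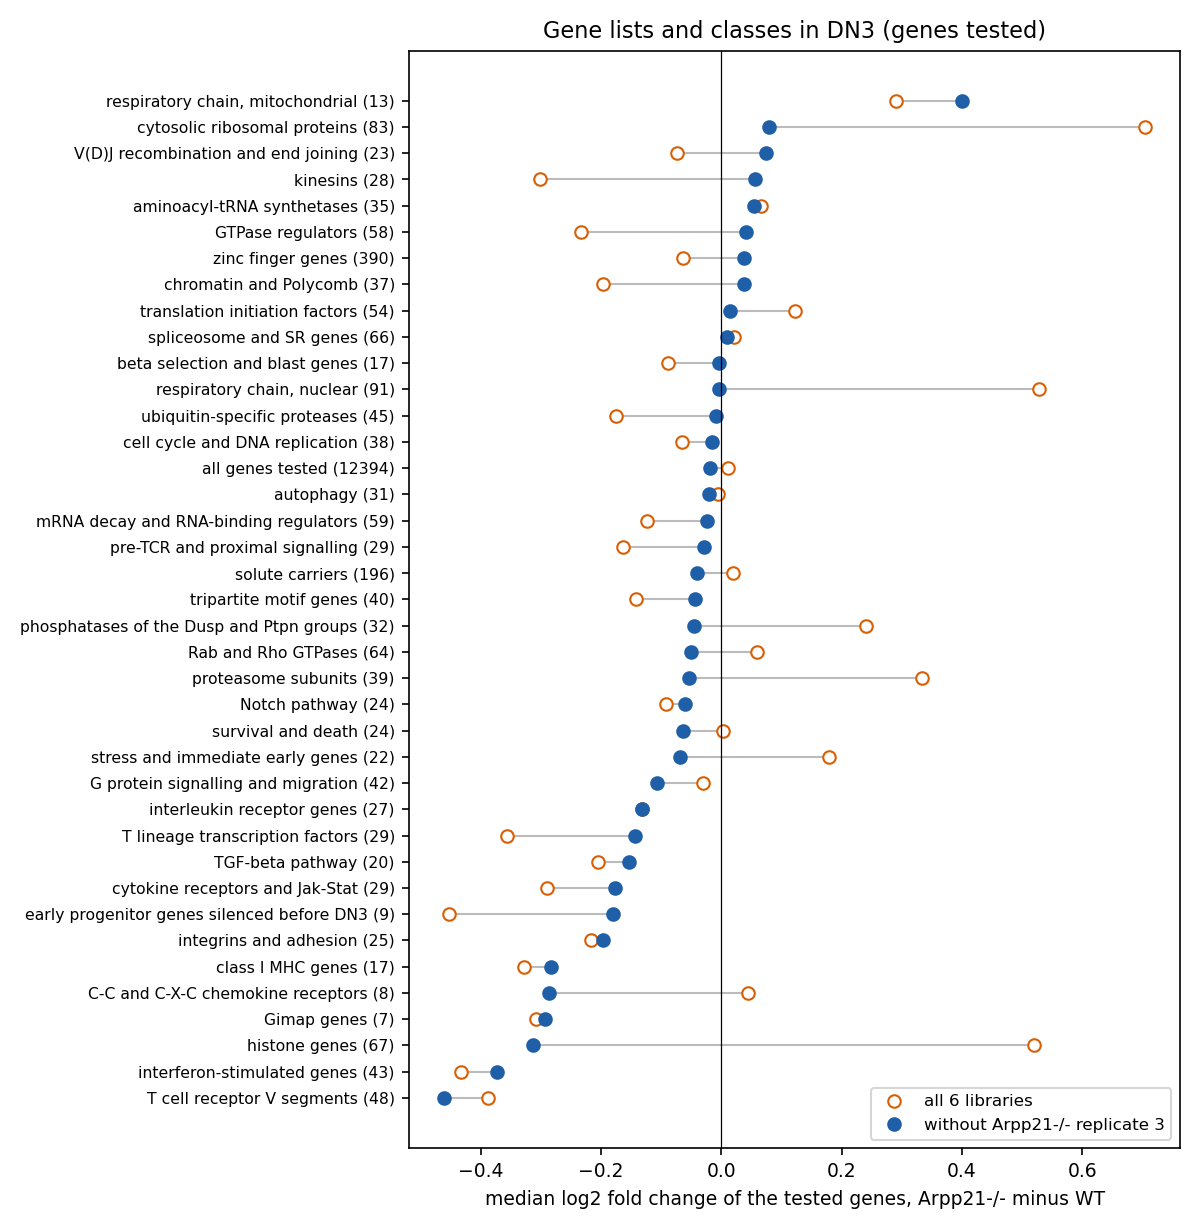
Median log2FC, Arpp21-/- minus WT, of each gene list or class of tested genes (their number in parentheses), with all 6 libraries (open circles) and without Arpp21-/- replicate 3 (filled circles). Interferon-stimulated genes and T cell receptor V segments lie at the left in both sets, while ribosomal proteins and histone genes move by more than 0.6 between them.

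At the level of single transcripts, edgeR called 0 of 33244 (0.0%), where 858 had an unadjusted p below 0.05 (2.58%), and DESeq2 called 144 of 33180 (0.434%), 102 lower (0.307%) and 42 higher (0.127%). They belonged to 137 genes, of which 29 were also called by DESeq2 as genes. In 74 of the 144 transcripts, every library of 1 genotype had at most 3 counts, where kallisto can assign nearly all read pairs of a gene to another of its forms. A test of the usage of transcripts within a gene, with edgeR, called 32 of 7930 genes (0.404%) with all libraries, where 151 had an unadjusted p below 0.05 (1.9%), and 59 of 8453 (0.698%) without Arpp21-/- replicate 3, with 15 genes in both. In 30 of the 32 genes, the leading transcript was at or below 3 counts in every library of 1 genotype, and with limma's usage test or a filter of 10 CPM 0 genes were called.

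In the other two genes the leading transcript was above this floor in both genotypes. H3f3a encodes the histone variant H3.3, and H3f3a-202, a form with a retained intron, changed in usage (edgeR adjusted p = 0.0126). It stood at 50.2, 25.7 and 62.8 CPM in WT, against 17, 11.1 and 7.43 CPM in Arpp21-/-, while the coding H3f3a-201 stood at 567, 675 and 623 CPM against 593, 664 and 1310 CPM. Rps3 encodes a protein of the small ribosomal subunit, and its form Rps3-205 stood at 11.4, 10.4 and 35.3 CPM against 2.65, 3.55 and 3.16 CPM (edgeR adjusted p = 0.0462). Genes whose leading form was at or below 3 counts in every library of 1 genotype included Rnf138, a ubiquitin ligase. Its form Rnf138-202 stood at 5.48, 7.18 and 9.39 CPM in WT, against at most 0.0725 CPM in Arpp21-/-. The gene total of Rnf138 did not follow, with a log2FC of 0.14. Itch, a ubiquitin ligase of T cells, was the reverse, with Itch-206 at 0 counts in WT after rounding and at 2.47, 0.791 and 4.01 CPM in Arpp21-/-. Arpp21 ranked 43 in this test (adjusted p = 0.0946).

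The 3′ UTR of the most abundant coding transcript was searched for runs of at least 9 uridines, since the study examined the binding of Arpp21 to uridine-rich RNA. Such a run was present in 21.8% of 11474 tested genes with a 3′ UTR. It was present in 33.3% of the 30 genes with a 3′ UTR that DESeq2 called lower and in 8.33% of the 12 that it called higher. Without Arpp21-/- replicate 3 the shares were 31.0% of 155 genes called lower and 18.6% of 43 called higher. The median 3′ UTR length was 878 nt over all genes, 818 nt in the genes called lower with all libraries and 1087 nt in those called lower without the replicate. The runs of 6 genes named above or in these lists are given in windows of 30 bases of the transcript strand, with the longest run of each 3′ UTR in capitals and T for U, from GENCODE M21 on GRCm38. They show how the runs look in genes with lower levels (Hdac4, Cep97, Fam199x, Rc3h2 and Gng2) and in a gene with higher levels (Cd81).
Hdac4, chr1:91931169-91931198, minus strand: tttgctcTTTTTTTTTTTTTTTcttatgac
Cep97, chr16:55900503-55900532, minus strand: acattttcaaTTTTTTTTTTctttttttga
Fam199x, chrX:137078441-137078470, plus strand: tgggagttcTTTTTTTTTTTTaaaaattac
Rc3h2, chr2:37374662-37374691, minus strand: ttctgtcTTTTTTTTTTTTTTTTgagagtg
Gng2, chr14:19874342-19874371, minus strand: tgagagtgagTTTTTTTTTTcatgacagtt
Cd81, chr7:143067518-143067547, plus strand: ttgttttagTTTTTTTTTTTgtcctgaact
The runs were 15, 10, 12, 16, 10 and 11 bases long. A run is a description of the sequence and not a binding site.

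Over all genes, the presence of a run went with little difference in fold change once genes of like UTR length were compared. In the quartile of genes with the longest 3′ UTRs, over 1851 nt, the median log2FC was -0.09 for 1379 genes with a run and -0.08 for 1490 genes without, and -0.04 and -0.02 without Arpp21-/- replicate 3. In the quartile with the shortest, of at most 352 nt, it was 0.06 and 0.15, and 0.01 and -0.01 without the replicate. With all libraries the median was lower in the longest than in the shortest quartile for genes with and for genes without a run.

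**Figure D5:**
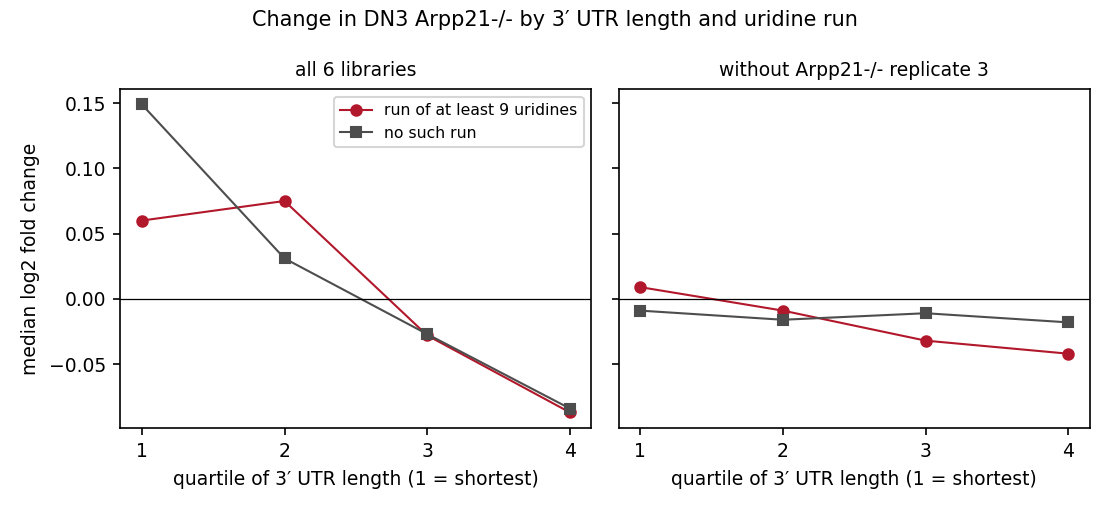
Median log2FC, Arpp21-/- minus WT, by quartile of 3′ UTR length for genes with (circles) and without (squares) a run of at least 9 uridines, with all 6 libraries at the left and without Arpp21-/- replicate 3 at the right. The decline from 0.15 to -0.08 in genes without a run is absent at the right, where all medians lie between -0.04 and 0.01. At the right, genes with a run still go from 0.009 in the shortest to -0.042 in the longest quartile.

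Genes near the edited locus were counted because alleles that flank it can differ between the genotypes. Within 5 Mb of Arpp21 on chromosome 9, 102 genes were tested, of which 5 were lower and 7 higher in every Arpp21-/- library, against 5.61% and 5.34% of all genes. Their median log2FC was -0.01. With all libraries 3 had an unadjusted edgeR p below 0.05, against 3.21% of all genes, and DESeq2 called 0. DESeq2 called 2 lower without Arpp21-/- replicate 3, Cish and Shisa5, against 1.35% of all genes. Cish, given above, and Shisa5 are both among the 5 that were lower in every library.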

How the data were processed

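RNA of sorted DN3 thymocytes was poly-A selected and made into libraries without strand information (SmartSeq V4 with Nextera). The authors aligned trimmed read pairs to the Ensembl 101 transcripts of GRCm38 with kallisto 0.46 and deposited, per transcript and library, estimated counts without normalization, effective lengths in bases (another unit, as deposited) and TPM, which the authors' kallisto scaled from counts and length to a fixed sum per library. GENCODE M21 gave a gene for 116728 of the 119414 transcript identifiers, and the other 2686 entered no result. Gene values are the rounded sum of the estimated counts of a gene's transcripts.

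The 6 DN3 libraries alone were fitted with edgeR 4.0.16 in R 4.3.3 (glmQLFit and glmQLFTest, two-sided, TMM, filterByExpr with a minimum count of 10 and total of 15), with Benjamini-Hochberg adjustment over all features and calls at an adjusted p under 0.05. Transcripts were tested likewise, and usage with diffSpliceDGE and Simes p values. Sums of Arpp21 transcripts were compared by exact permutation of log2(CPM + 1). Alternatives were DESeq2 1.42.0, limma 3.58.1 voom with sample quality weights, limma-trend on log2(TPM + 1) and log2(TPM + 0.1) (genes reaching a TPM of 1 in 2 or more libraries), other scaling and filters, offsets for transcript length, all 11 libraries in 1 fit, the replicate number as a block, an adjusted p under 0.1 and leaving out each library. The procedures were tested on simulated counts of the same spread, which did not carry the length trend of Arpp21-/- replicate 3. With 6 libraries, edgeR recovered 3.12% of 2-fold and 56.4% of 4-fold changes of genes, and 0% of either in transcripts. Its 0 calls therefore do not show that no gene changed. DESeq2 recovered 16.7% and 79.8% for genes. It also called 38 genes and 99 transcripts that had not been changed, more than its threshold allows, against 3 and 0 for edgeR. On counts simulated for the 5 libraries without Arpp21-/- replicate 3, edgeR recovered 44.8% of 2-fold and 89.9% of 4-fold changes of genes. DESeq2 recovered 63.5% and 91.9% there. In that setting edgeR called 15 and DESeq2 42 genes that had not been changed. Tables and plots were made with Python 3.11.15, pandas 2.3.3, numpy 2.4.6 and matplotlib 3.10.9.

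Gene lists, classes and alternatives were chosen with earlier results of these data known. Lists are described by counts and medians, without a set test. Genes were named by a rule: Arpp21, in each direction 12 genes by lowest p and up to 25 called by 2 of 3 tools, in each list 4 members by lowest p and the most abundant one, and up to 10 transcripts and usage genes. Oasl2, Rsad2, Rtp4, Isg15, Irf9, Tap1, Oas3, Psmb9, Psmb10, Ifnar2, H2-Q2, Trgv2, Tcrg-V4, Tcrg-V1, Trbv12-1, Trbc1, Uaca, Crip1, Shisa5 and mt-Cytb were chosen after their values were seen. Reads of overlapping genes on opposite strands cannot be told apart. CPM of low genes are limited by depth, since 3 counts correspond to 0.134 to 0.262 CPM. A few genes are not reported here by name, and they remain in the counts and medians.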

Additional observations from a re-analysis of the deposited data

How the results depend on the processing

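With 6 libraries, 0 genes were called by edgeR, by either limma-trend fit, with DESeq2 size factors, with other filters, with either length offset or at an adjusted p under 0.1, while DESeq2 called 49, limma voom with sample quality weights 85 and a fit of all 11 libraries 1. Leaving out each library in turn gave 0 to 11 genes, and the 11 appeared only without Arpp21-/- replicate 3, where DESeq2 called 219, limma voom 10 and the offset for the length trend 16. For transcripts DESeq2 called 144 and every other alternative 0. Usage calls (32) went to 0 with limma, to 0 with a filter of 10 CPM, and ranged from 8 to 59 when each library was left out, lowest without WT replicate 1. The cause of these differences was not tested.

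Deviations of same-numbered libraries from their genotype means correlated at 0.316, -0.149 and 0.103, and those of other pairs at -0.283 to 0.237. Replicate 3 made up most of the spread within Arpp21-/- (median SD 0.454 with it, 0.134 without). These correlations therefore cannot tell whether the replicate numbers pair the libraries. With the number as a replicate block, 0 genes, 0 transcripts and 5 usage genes were called, and for Arpp21 transcripts with the 145 nt exon the difference of -1.55 had an exact p of 0.25, the smallest that 3 pairs allow.

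The medians of 11 lists and of all genes had these values where they moved. Under the offset for the length trend, the TGF-β pathway was at -0.01, mitochondrial genes at 0.14, V segments at -0.62, ribosomal proteins at 0.30, histone genes at 0.18, cytokine receptors at -0.12, T lineage factors at -0.23 and all genes at 0.04. Leaving out each library gave ranges of -0.49 to -0.22 for class I genes, -0.46 to -0.29 for V segments, 0.08 to 0.95 for ribosomal proteins, -0.31 to 0.88 for histone genes and -0.02 to 0.02 for all genes, and the median of V(D)J recombination genes lay between -0.17 and 0.13 over all alternatives. Of the named genes, the following changed sign. Under limma voom and the length trend, Psmb8 was at -0.23 and -0.07, Psmb9 at -0.17 and -0.06 and Psmb10 at -0.17 and -0.02, and Trdc was at 0.04 under the length trend. Leaving out each library gave -0.27 to 0.38 for Psmb8, -0.27 to 0.38 for Psmb9, -0.20 to 0.42 for Psmb10, -0.08 to 0.57 for mt-Cytb and -0.03 to 1.19 for mt-Co3. Among 80 named genes and 11 alternatives each, 787 values kept direction and call, 81 gained a call and 12, in 6 genes, changed sign.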

Other observations

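The Gimap genes, GTPases of lymphocytes that lie together on chromosome 6, were lower in every Arpp21-/- library in 3 of 7 tested genes (42.9%) and higher in 0, against 5.61% and 5.34% of all genes, with a median log2FC of -0.31 and, without Arpp21-/- replicate 3, -0.29. Gimap7 stood at 8.68, 4.61 and 6.15 CPM in WT, against 2.36, 3.48 and 3.75 CPM in Arpp21-/- (log2FC -1.02, SE 0.360). DESeq2 and limma voom called 0 Gimap genes, of which 1 had an unadjusted edgeR p below 0.05, against 3.21% of all genes.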
